A study of Mus musculus with 12 samples.

Results

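The transcripts of 9 genes of Nodal and Lefty signalling were followed in mouse embryonic stem cells (ESCs) in which the transcriptional coactivator YAP was either depleted or overexpressed. The genes were chosen by their known role in the pathway, with earlier results of these data known. They are the ligands Nodal and Gdf3, the antagonists Lefty1 and Lefty2, the co-receptor Tdgf1, the transducers Smad2 and Smad3, and the feedback inhibitors Smad7 and Skil. All 9 were found among the 24480 genes of the deposited tables, and all 9 had enough counts to be tested in every comparison.

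The cells were E14Tg2a, a feeder-independent mouse ESC line, grown with leukemia inhibitory factor (LIF) and serum on gelatin and carrying no other modification named in the sources. In the knockdown experiment they were transiently transfected with siRNAs against YAP (YAP KD) or with scrambled siRNAs (CTR KD). For overexpression the same line was given a plasmid with the mouse YAP coding sequence under the CAG promoter (YAP OE) or, by the labels, a plasmid encoding GFP (CTR OE), which the study's text calls an empty vector. Each of the 4 groups has 3 libraries of total RNA from independent samples. The study timed the RNA of the knockdown to the low point of YAP after siRNA transfection, and a time for the overexpression is not given in the sources used here. The transfections were transient, so the libraries hold RNA from transfected and untransfected cells together. In such bulk samples fewer cells of a type and less RNA per cell cannot be told apart.

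Nodal is a secreted ligand of the TGF-β family that signals through activin receptors, with Tdgf1 (Cripto) as co-receptor, to phosphorylate SMAD2 and SMAD3, which then act in the nucleus with SMAD4 and FOXH1. Lefty1 and Lefty2 encode secreted antagonists that are themselves induced by the pathway, so that Nodal and Lefty form a feedback pair. Mouse ESCs in culture express the ligand, the co-receptor and the antagonists, and YAP is known to associate with SMAD2/3 in pluripotent cells.

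Lefty1 and Lefty2 lie on chromosome 1 in GRCm38.p6 (mm10), Lefty2 at chr1:180893108-180899107 and Lefty1 at chr1:180935022-180938401, with 35914 bases between them, and all gene spans given here are in that build. Their coding sequences have the same length, 1107 bases in 4 coding exons, and 1017 of these bases (91.9%) are identical in the GENCODE vM1 transcripts (NCBIM37). Identity was 77.6% in coding exon 1, 94.3% in exon 2, 98% in exon 3 and 95.9% in exon 4, and the longest identical run was 140 bases. Of all 75-base stretches of Lefty1 coding sequence, 16.7% occur in Lefty2, and of all 50-base stretches 26.6% do. The sequences matter here because a read from an identical stretch cannot be assigned to one gene by its letters. The least alike 120-base stretch within 1 exon is shown, since reads from it can be told apart, and it is in coding exon 1 (chr1:182865286-182865405 in Lefty1 and chr1:182823360-182823479 in Lefty2, NCBIM37, plus strand), where capitals mark the 34 bases that differ.
Lefty1: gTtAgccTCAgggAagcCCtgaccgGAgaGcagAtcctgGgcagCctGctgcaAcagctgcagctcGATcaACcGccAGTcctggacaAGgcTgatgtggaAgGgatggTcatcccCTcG
Lefty2: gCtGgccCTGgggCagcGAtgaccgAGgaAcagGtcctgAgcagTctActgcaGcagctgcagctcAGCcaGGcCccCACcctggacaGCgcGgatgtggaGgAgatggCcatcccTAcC

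The expected counts of Lefty1 and Lefty2 were not whole numbers (tolerance 0.005) in any of the 12 libraries, but their sum was whole in every one. Reads were thus divided between these 2 genes and not shared with a further gene. The counts of the other 7 genes were whole in every library. In RefSeq, long noncoding transcripts without an entry in the files overlap Lefty1 (Gm39715), Smad3 (Gm51710) and Smad7 (Gm41776), and a strand setting is not given in the sources used here, so reads from these loci cannot be told apart.

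Depth ran from 42900000 to 57200000 expected counts per library, with 17611 to 18163 genes detected by 1 count or more. Levels are given as CPM, the counts of a gene scaled to the same library total, with TMM factors of all 12 libraries. The labels were checked first with Yap1, which stood at 116, 135 and 125 CPM in CTR KD and at 58.5, 54.9 and 56.6 CPM in YAP KD. In the overexpression experiment Yap1 stood at 134, 130 and 134 CPM in CTR OE and at 277, 256 and 244 CPM in YAP OE. Yap1 fell by 1.14 on the log2 scale in YAP KD (SE 0.0568, edgeR adjusted p = 4.36e-05) and rose by 0.97 in YAP OE (SE 0.047, edgeR adjusted p = 3.47e-08), and the plasmid's own transcript is counted with the gene. The 7 markers of undifferentiated ESCs (Pou5f1, Sox2, Nanog, Zfp42, Esrrb, Klf4 and Tfcp2l1) summed to between 3620 and 3990 CPM across libraries. A sum does not show changes of single genes, and those of these markers in YAP KD are given below. The 4 mesendoderm markers, which include T and Eomes, summed to between 1.71 and 3.13 CPM.

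Compared per length, as CPM per kb of effective length, the 9 genes covered a wide range with the same broad order in all groups. Tdgf1 was highest, with group means from 313 to 318 CPM per kb. Lefty1 followed with means from 69.2 to 80.9 and Gdf3 with means from 52.1 to 59.9 CPM per kb. Next came Nodal (40.7 to 46), Skil (35 to 39.7) and Lefty2 (21.9 to 31.6). The transducers and Smad7 were lowest, Smad7 with means from 10.2 to 11, Smad2 from 9.01 to 9.43 and Smad3 from 2.93 to 3.2 CPM per kb. The Smad7 and Smad2 ranges are adjacent, and the libraries of Smad7 (9.45 to 12.6) and Smad2 (8.75 to 9.6) overlapped. Those of Nodal (38.6 to 48.3) and Skil (32.4 to 42.2) overlapped too, and in YAP KD 2 Skil stood above Nodal. The highest Lefty2 library (32.8, YAP KD 1) reached just above the lowest of Skil (CTR KD 2).

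**Figure D1:**
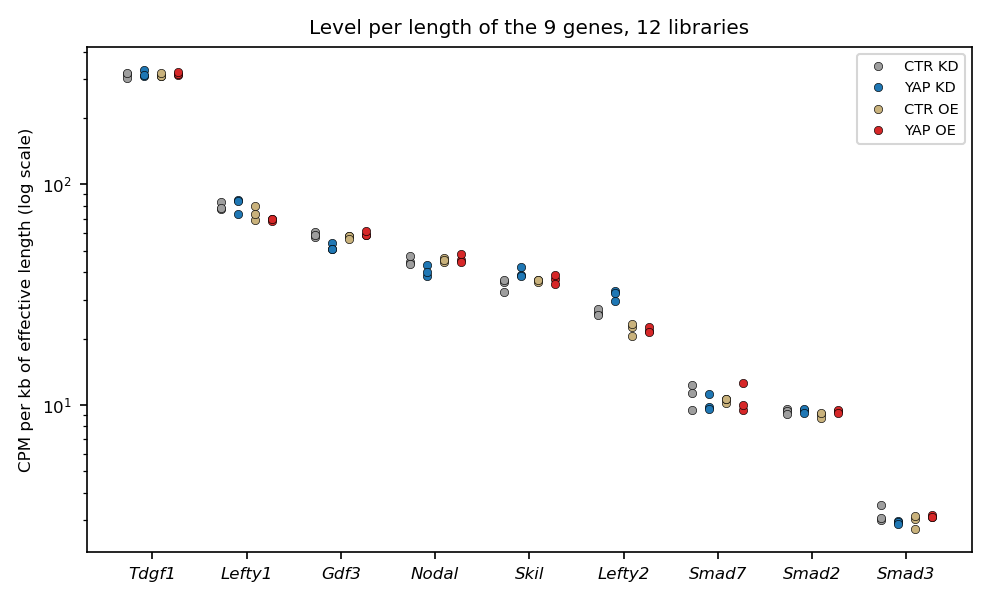
Level of each of the 9 genes in CPM per kb of effective length (log scale) in each of the 12 libraries, coloured by group. Tdgf1 stands highest at 304 CPM per kb or more and Smad3 lowest, and the span from gene to gene is wider than the spread of any 1 gene over the groups.

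The first question was whether depletion of YAP changed these transcripts. In YAP KD, 2 of the 9 genes changed. Lefty2 rose by 20% and Gdf3 fell by 12%, while 7 genes, among them Lefty1 and Nodal, did not pass the test. Over all 14606 genes tested, 802 were called at an adjusted p under 0.05 (edgeR quasi-likelihood F test), which is 5.49%. The median log2 fold change of the 9 genes was 0.01 and the median size of the change 0.13, against 0.01 and 0.08 over all genes tested. In 5 of the 9 genes all YAP KD libraries lay on one side of all CTR KD libraries, 2 above and 3 below, where 25.7% of all genes did so. The p-values measure the spread between these libraries, 3 per group.

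Among the ligands, Gdf3 encodes a TGF-β family protein that is expressed in pluripotent cells and signals through the same co-receptor as Nodal. Gdf3 (chr6:122605403-122610087) stood at 111, 118 and 114 CPM in CTR KD and at 104, 98.7 and 98.9 CPM in YAP KD. Every YAP KD library was below every CTR KD library. The log2 fold change (log2FC, YAP over CTR) was -0.18 (SE 0.0419, 95% interval -0.28 to -0.09, edgeR adjusted p = 0.0343). The call was kept in 2 of 6 fits that left out 1 library. It was lost without CTR KD 3 (log2FC -0.19, edgeR adjusted p = 0.116), YAP KD 1 (-0.21, 0.0652), YAP KD 2 (-0.17, 0.158) or YAP KD 3 (-0.18, 0.126), so the size of the difference moved little.

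Nodal (chr10:61417972-61425338) stood at 85.3, 91.2 and 83.5 CPM in CTR KD and at 82.4, 73.8 and 77.4 CPM in YAP KD. All YAP KD libraries were below all CTR KD libraries, the nearest pair by about 1 CPM. The log2FC was -0.15 (SE 0.0525, 95% interval -0.27 to -0.03), with an unadjusted p of 0.0165 and an edgeR adjusted p of 0.14, so Nodal did not pass the test.

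Of the antagonists, Lefty2 stood at 59.8, 62.8 and 58.9 CPM in CTR KD and at 75.1, 74.2 and 68.3 CPM in YAP KD. The groups did not overlap, and YAP KD was higher. The log2FC was 0.26 (SE 0.0488, 95% interval 0.15 to 0.37, edgeR adjusted p = 0.0145). The call was kept in 3 of 6 fits that left out 1 library and lost without CTR KD 3 (log2FC 0.24, edgeR adjusted p = 0.0798), YAP KD 1 (0.23, 0.0731) or YAP KD 2 (0.24, 0.085).

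Lefty1 stood at 111, 119 and 112 CPM in CTR KD and at 121, 119 and 106 CPM in YAP KD, and the groups overlapped. Its log2FC was 0.02 (SE 0.0575, 95% interval -0.11 to 0.15, edgeR adjusted p = 0.902). Lefty2 therefore took a larger share of the reads of the pair in YAP KD. It held 35.1%, 34.5% and 34.5% of the Lefty1 plus Lefty2 counts in CTR KD and 38.3%, 38.3% and 39.3% in YAP KD, a difference of 3.94 percentage points (two-sided exact permutation p = 0.1, the smallest that 3 against 3 libraries allow). When both genes were summed into 1 feature before the fit, the log2FC was 0.11 (SE 0.0536, edgeR adjusted p = 0.305) and the call was lost. How exactly reads were divided between these 2 genes of 91.9% coding identity was not tested.

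**Figure D2:**
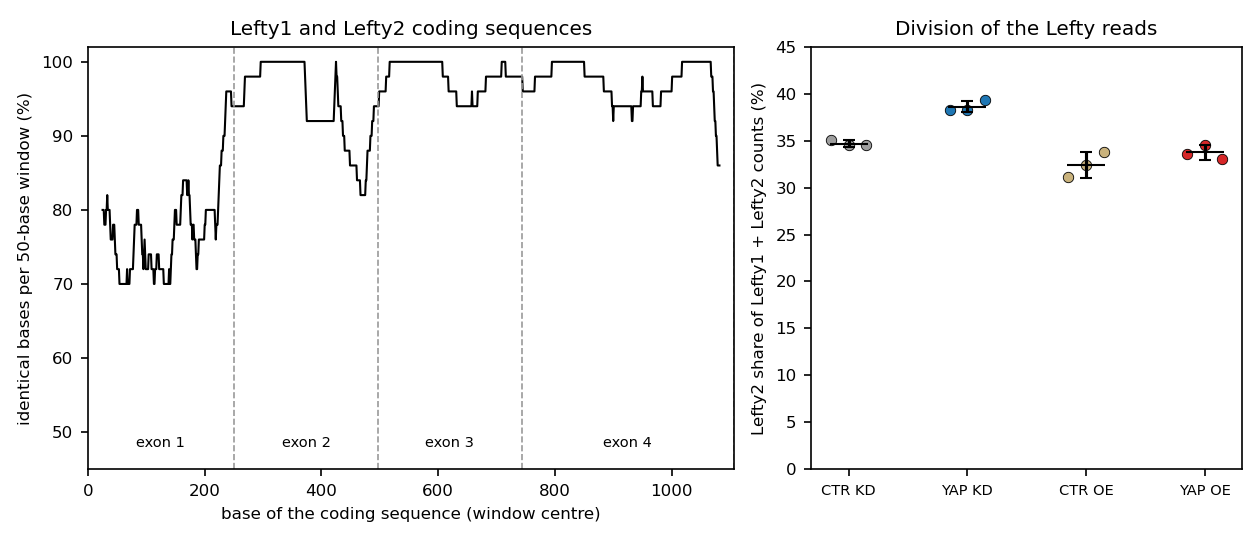
Left, identity of the Lefty1 and Lefty2 coding sequences in 50-base windows (percent) along the coding sequence, with dashed lines at the exon boundaries; exon 1 is the least alike, at 77.6%. Right, Lefty2 share of the Lefty1 plus Lefty2 counts (percent) in each library, with mean and SD of 3; the YAP KD libraries (38.3 to 39.3%) lie above all others.

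The sum of both Lefty genes was 2, 2 and 2.04 counts per Nodal count in CTR KD and 2.38, 2.62 and 2.24 in YAP KD. The means were 2.01 ± 0.0275 and 2.42 ± 0.193 (SD, n = 3, two-sided exact permutation p = 0.1, the smallest possible). The antagonist to ligand ratio of the transcripts was thus higher in all 3 YAP KD libraries than in all 3 CTR KD libraries. Counts of different genes are not scaled by length here, so the ratio is read only between groups.

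The co-receptor Tdgf1 (chr9:110939608-110946158), the most abundant of the 9 per length, stood at 552, 532 and 560 CPM in CTR KD and at 539, 577 and 550 CPM in YAP KD. The groups overlapped. The log2FC was 0.02 (95% interval -0.08 to 0.12, edgeR adjusted p = 0.853), an interval that leaves room for about 0.1 in either direction.

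Smad2 and Smad3 encode the receptor-regulated SMADs of this branch. Smad2 stood at 82.3, 80.3 and 77.8 CPM in CTR KD and at 81.3, 81.9 and 79 CPM in YAP KD, and the groups overlapped (log2FC 0.01, 95% interval -0.08 to 0.10, edgeR adjusted p = 0.913). Smad3 stood at 14.8, 17.2 and 15.2 CPM in CTR KD and at 14.6, 14.5 and 14.2 CPM in YAP KD. All YAP KD libraries of Smad3 were below all CTR KD libraries, but the log2FC of -0.13 (SE 0.0659, edgeR adjusted p = 0.33) did not pass the test.

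Smad7 and Skil are induced by SMAD signalling and restrain it, Smad7 at the receptor and Skil, which encodes the corepressor SnoN, at SMAD complexes in the nucleus. Skil (chr3:31095058-31122923) stood at 245, 220 and 249 CPM in CTR KD and at 263, 286 and 261 CPM in YAP KD. All YAP KD libraries were above all CTR KD libraries. The log2FC was 0.18 (SE 0.0576, 95% interval 0.06 to 0.31), with an unadjusted p of 0.00989 and an edgeR adjusted p of 0.107. Of 9 alternative fits, 1 called Skil, that of all 12 libraries together (0.18, edgeR adjusted p = 0.041). That fit called 1261 of all genes in place of 802. Skil was called in 0 of 6 fits that left out 1 library. Smad7 varied more among replicates, at 40.5, 52.5 and 48.2 CPM in CTR KD and 41.7, 41 and 48 CPM in YAP KD, and the groups overlapped (log2FC -0.11, 95% interval -0.32 to 0.10, edgeR adjusted p = 0.582).

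**Figure D3:**
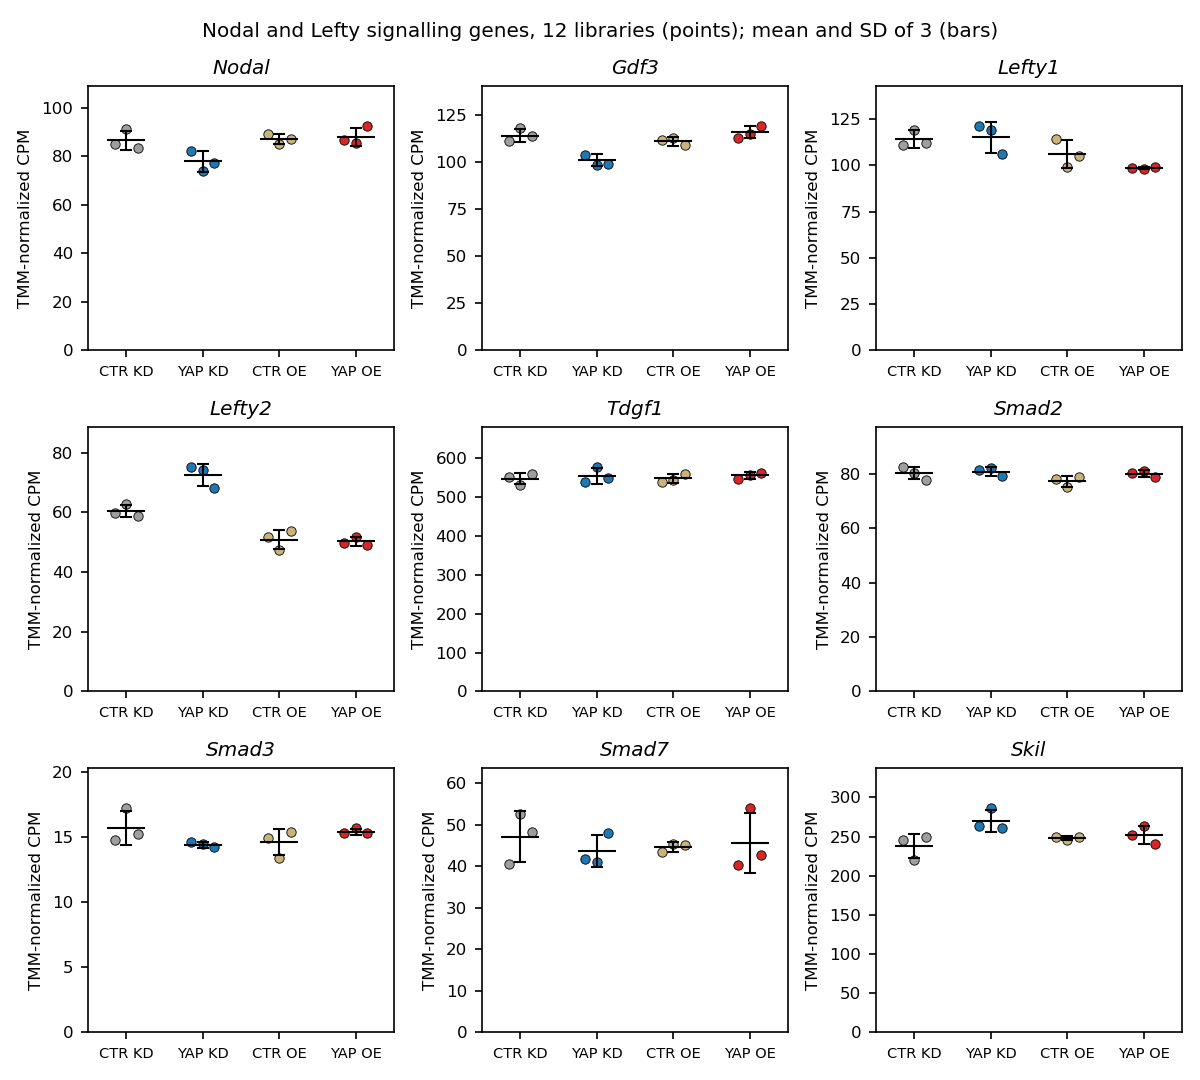
TMM-normalized CPM of each of the 9 genes in the 12 libraries (points, in order of replicate number), with mean and SD of 3 libraries per group; each vertical axis starts at 0. Lefty2 is highest and Gdf3 lowest in YAP KD, and the overexpression groups lie close together.

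The second question was whether excess YAP changed the same genes. In YAP OE, 0 of the 9 genes passed the edgeR test, and 1 (Lefty1) had an unadjusted p under 0.05. DESeq2 and limma-voom also called 0 of the 9. Over all 14804 genes tested, 316 were called, which is 2.13%. The median log2FC of the 9 genes was 0.02 and the median size 0.03, against -0.00249 and 0.06 over all genes tested. In 2 of the 9 genes, Gdf3 and Smad2, all YAP OE libraries lay above all CTR OE libraries, where 18.2% of all genes did not overlap in one direction or the other.

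Lefty1 stood at 114, 98.9 and 105 CPM in CTR OE and at 98.7, 98.2 and 99.2 CPM in YAP OE. The groups overlapped, since CTR OE 2 lay within the range of YAP OE. The log2FC was -0.10 (SE 0.047, 95% interval -0.20 to -0.00411), with an unadjusted p of 0.0423 and an edgeR adjusted p of 0.352. Lefty2 stood at 51.6, 47.3 and 53.9 CPM in CTR OE and at 49.9, 51.9 and 49.1 CPM in YAP OE, again with overlap (log2FC -0.02, 95% interval -0.12 to 0.08, edgeR adjusted p = 0.928). The Lefty2 share of the pair was 31.1%, 32.4% and 33.8% in CTR OE and 33.6%, 34.6% and 33.1% in YAP OE (two-sided exact permutation p = 0.3). Summed, the pair had a log2FC of -0.08 (SE 0.0453, edgeR adjusted p = 0.522).

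Gdf3 stood at 112, 113 and 109 CPM in CTR OE and at 113, 115 and 119 CPM in YAP OE, a log2FC of 0.05 (SE 0.038, 95% interval -0.03 to 0.14, edgeR adjusted p = 0.596). Nodal stood at 89.3, 85.1 and 87 CPM in CTR OE and at 86.6, 85.4 and 92.4 CPM in YAP OE, a log2FC of 0.02 (95% interval -0.07 to 0.10, edgeR adjusted p = 0.914). For these ligands the upper bounds of the intervals, 0.14 and 0.10, are the largest rises that these data leave room for at the 95% level.

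The remaining 5 genes had log2FC values from 0.02 to 0.08 in YAP OE. Tdgf1 (0.02, edgeR adjusted p = 0.909), Smad2 (0.05, 0.617), Smad3 (0.08, 0.618) and Skil (0.02, 0.882) did not pass the test. Smad3 ranged from 13.4 to 15.4 CPM within CTR OE. Smad7 ranged from 40.2 to 53.9 CPM within YAP OE, and its interval was the widest (log2FC 0.03, 95% interval -0.14 to 0.19, edgeR adjusted p = 0.933).

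**Figure D4:**
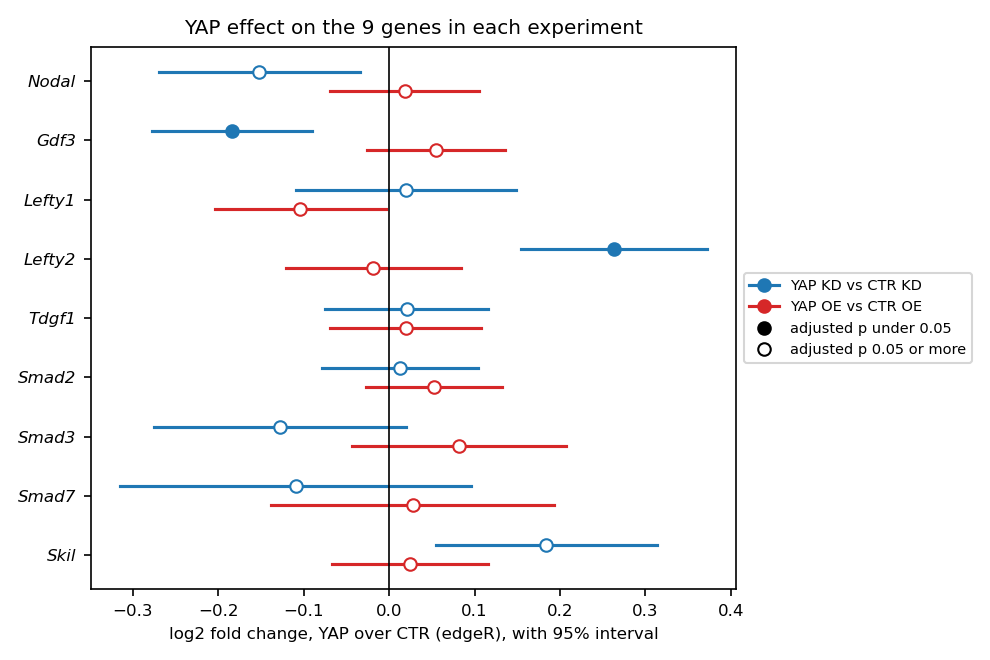
Log2FC of YAP over CTR for each of the 9 genes, with its 95% interval, in the knockdown (blue) and the overexpression (red); filled points have an edgeR adjusted p under 0.05. Only Lefty2 (0.26) and Gdf3 (-0.18) in the knockdown are filled, and in the overexpression the values run from -0.10 to 0.08.

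The effects of knockdown and overexpression were then compared with each other in 1 fit over all 12 libraries. Of the 9 genes, Gdf3 and Lefty2 differed between the experiments, where 8.8% of the 15049 genes tested did. The YAP effect on Gdf3 was higher in the overexpression by 0.24 on the log2 scale (SE 0.0537, edgeR adjusted p = 0.0106), and this call was kept in 12 of 12 fits that left out 1 library. The YAP effect on Lefty2 was lower in the overexpression, by a log2 difference of -0.28 (SE 0.0725, edgeR adjusted p = 0.0242). That call was kept in 5 of 12 such fits and lost without CTR KD 3 (-0.26), YAP KD 1 (-0.25), YAP KD 2 (-0.26), CTR OE 1 (-0.27), CTR OE 3 (-0.24), YAP OE 1 (-0.27) or YAP OE 3 (-0.26). It was also lost for the summed pair (-0.18, edgeR adjusted p = 0.154), an alternative added after the data were seen. For Nodal the difference was 0.17 (95% interval 0.03 to 0.32, edgeR adjusted p = 0.143), for Smad3 0.21 (edgeR adjusted p = 0.17) and for Skil -0.16 (edgeR adjusted p = 0.216).

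The control groups differ in the transfected agent and in the experiment, which cannot be told apart. Lefty2 was the only one of the 9 genes called between them, lower in CTR OE by a log2FC of -0.25 (SE 0.0513, edgeR adjusted p = 0.0265), where 1.33% of the 15049 genes were called. This call was lost without CTR KD 2 (-0.22), CTR KD 3 (-0.27), CTR OE 1 (-0.25) or CTR OE 2 (-0.19), and for the summed pair (-0.15, edgeR adjusted p = 0.247). It shares its CTR KD libraries with the knockdown comparison. Ordered by mean, Lefty2 ran from YAP OE (50.3 ± 1.46 CPM) and CTR OE (50.9 ± 3.33), which overlapped, through CTR KD (60.5 ± 2.04) to YAP KD (72.5 ± 3.73, SD, n = 3), and neither of the last steps had overlapping libraries. Gdf3 ran from YAP KD (101 ± 3.07 CPM), apart from the rest, to CTR OE (111 ± 2.27), CTR KD (114 ± 3.43) and YAP OE (116 ± 2.94), whose neighbours overlapped. Nodal had the same pattern, with YAP KD (77.9 ± 4.36 CPM) below the overlapping CTR KD (86.6 ± 4.04), CTR OE (87.1 ± 2.1) and YAP OE (88.1 ± 3.75). For Lefty1, Tdgf1, Smad3, Smad7 and Skil every neighbouring pair of groups overlapped, and for Smad2 only CTR OE (77.2 ± 2.04 CPM) stood below the next group, YAP OE (80 ± 1.15).

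Markers of other cell states moved with some of these groups. The 4 trophoblast markers summed to between 32.4 and 36.8 CPM in CTR KD, 44.2 and 45.3 in YAP KD, 53.7 and 57.8 in CTR OE, and 65.5 and 78.2 in YAP OE. Most of this was Krt8, a keratin of simple epithelia, which rose in YAP KD (log2FC 0.37, edgeR adjusted p = 0.00444) and in YAP OE (0.36, 0.00224). The transcription factor genes Cdx2 and Gata3 rose in YAP OE from low levels, Cdx2 by 4.14-fold to a mean of 0.628 CPM (edgeR adjusted p = 0.00159) and Gata3 by 3.58-fold to 1.04 CPM (edgeR adjusted p = 0.000886). Elf5 had group means of at most 0.0769 CPM. The 4 markers of primed epiblast summed to between 261 and 293 CPM in CTR KD and 252 and 275 in YAP KD. In the overexpression groups they summed to between 298 and 351 CPM. Most of this was Dnmt3b, with group means of 223 to 282 CPM. Fgf5 had a log2FC of 0.29 in YAP KD and -0.63 in YAP OE, without overlap in either. Its effects differed by -0.91 (edgeR adjusted p = 0.0178), at group means of at most 1.49 CPM. Pou3f1 had 0.26 and -0.27, and Otx2 -0.16 and 0.05. None of the 4 passed the test within either experiment. The 7 primitive endoderm markers summed to between 6.22 and 8.76 CPM in all libraries. In YAP OE 4 had a positive and 3 a negative log2FC, and only Dab2 was called, 1.55-fold higher (edgeR adjusted p = 0.00645). Those lower were Gata4 (-0.265, without overlap, edgeR adjusted p = 0.431), Sox17 (-0.01) and Sox7 (-0.05). The 5 fibroblast markers summed to between 1.84 and 2.22 CPM in CTR KD and 2.33 and 3.11 in YAP KD, without overlap. In the overexpression groups they summed to between 2.47 and 3.03 CPM. In YAP KD 4 of them were tested and 0 were called by edgeR. The log2FC was 1.1 for Col1a1, 0.73 for Col1a2 and 0.10 for Thy1, and Col3a1 went the other way (-0.21). Dcn was too low to be tested. No marker list had a gene at 0 in a whole group. Beside these lists, 5.49% of all genes tested were called by edgeR in YAP KD and 2.13% in YAP OE.

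Of the 7 markers of undifferentiated ESCs, 0 were called by edgeR in YAP KD, where 5.49% of all genes tested were. The share of all genes with an unadjusted p under 0.05 is not given here. Nanog, Zfp42, Esrrb and Tfcp2l1 had such a p in YAP KD, with lower mean values than in CTR KD. Their log2FC values were -0.13 for Nanog (edgeR adjusted p = 0.0959), -0.13 for Zfp42 (0.0997), -0.16 for Esrrb (0.159) and -0.10 for Tfcp2l1 (0.194), beside -0.18 for Gdf3 and -0.15 for Nodal. Pou5f1 (0.07, edgeR adjusted p = 0.462), Sox2 (0.03, 0.83) and Klf4 (0.07, 0.725) went the other way, with overlap. The YAP KD libraries of Nanog, Zfp42 and Tfcp2l1 lay below all CTR KD libraries, and those of Esrrb overlapped. Of all genes tested, 25.7% did not overlap in one direction or the other. The part of these cell states in the values of Lefty2, Gdf3 and the other genes was not tested.

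The deviations of the 9 genes from the mean of their experiment were compared over the 12 libraries, as a description that includes the YAP effect itself. Nodal and Gdf3 varied together (Pearson r = 0.87), and both ran against Skil (r = -0.91 and -0.81). Gdf3 ran against Lefty2 (r = -0.75), and Lefty2 and Skil varied together (r = 0.67). Lefty1 and Lefty2 had r = 0.43, and Nodal and Lefty1 r = 0.18. The libraries share depth and read composition, and no p is given.

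By the same measure, the genes most like each of the 9 were sought among 12413 genes with a mean of at least 1 CPM. For Gdf3 they were Phldb3 (r = 0.986), Pctp and Peli2. For Nodal they were Mettl7a1 (r = 0.955), Det1 and Ganab, and for Lefty2 they were Stac2 (r = 0.929), Hmgb3 and Sun1. Lefty1 was most like Fsd1 (r = 0.965), Wwp2 and Cxxc5, and Smad7 was most like Igf1r (r = 0.964), Phlpp1 and Ccdc85c. Among the genes most like Skil were AW554918 (r = 0.926) and Abhd18. Smad3 was most like Cdca8 (r = 0.945), Eda and Abcb6. The lowest values were those of Tdgf1, with Gzf1 (r = 0.883), D730005E14Rik and Zbtb18, and of Smad2, with Zfp235 (r = 0.855), Alg3 and Sarm1.

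A list of 38 other genes of the pathway was read beside the 9. In YAP KD, 33 were tested and 3 were called, 1 higher (Inhbb) and 2 lower (Pcsk6 and Cfc1), against the 5.49% of all genes given above. In YAP OE, 34 were tested and 3 were called, 1 higher (Nedd4l) and 2 lower (Inhbb and Gdf1), against 2.13%. The median log2FC of the list was -0.00455 in YAP KD and 0.00527 in YAP OE.

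Inhbb, which encodes the βB subunit of activin and inhibin, was called in both experiments and in opposite directions. It stood at 24.9, 31.9 and 30.8 CPM in CTR KD and at 43, 43.5 and 47.3 CPM in YAP KD, and at 23.7, 24.6 and 26.7 CPM in CTR OE and 17.3, 20.2 and 19.5 CPM in YAP OE. The groups did not overlap in either experiment. The log2FC was 0.61 in YAP KD (SE 0.0838, edgeR adjusted p = 0.00356) and -0.40 in YAP OE (SE 0.0621, edgeR adjusted p = 0.00251), and each call was kept in 6 of 6 fits that left out 1 library. The difference between the effects was -1.01 (SE 0.116, edgeR adjusted p = 6.98e-05). Of the other activin and inhibin subunits, Inhba was too low to be tested and Inha did not pass the test (log2FC 0.34 in YAP KD, edgeR adjusted p = 0.523).

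Pcsk6 encodes a proprotein convertase (PACE4) that can cleave the Nodal precursor. It stood at 34.5, 41.2 and 36.2 CPM in CTR KD and at 31.6, 28.4 and 29.9 CPM in YAP KD, without overlap, a log2FC of -0.32 (SE 0.0689, edgeR adjusted p = 0.0292). The call was lost without CTR KD 3 (-0.34), YAP KD 1 (-0.36), YAP KD 2 (-0.28) or YAP KD 3 (-0.32). Furin, the other convertase listed, had a log2FC of -0.15 in YAP KD (edgeR adjusted p = 0.442). In YAP OE the log2FC of Pcsk6 was 0.16 (SE 0.0497, edgeR adjusted p = 0.128), and the difference between the effects was 0.48 (SE 0.0913, edgeR adjusted p = 0.00384).

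Cfc1 (Cryptic), a co-receptor related to Tdgf1, was low, at 1.87, 1.58 and 1.6 CPM in CTR KD and 1.09, 1.07 and 0.952 CPM in YAP KD, without overlap. Its log2FC was -0.70 (SE 0.145, edgeR adjusted p = 0.0236). The call was kept only in the fit without CTR KD 2, among 6 that left out 1 library (log2FC values from -0.74 to -0.62, highest edgeR adjusted p = 0.0976). It was lost in DESeq2 (adjusted p = 0.0519) and in the fit of all 12 libraries (edgeR adjusted p = 0.0577), and RefSeq places Prss40 over the same span.

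Nedd4l, a ubiquitin ligase that acts on SMAD2/3, stood at 18.1, 18.5 and 17.4 CPM in CTR OE and at 23, 25.5 and 21.6 CPM in YAP OE, without overlap. The log2FC was 0.37 (SE 0.06, edgeR adjusted p = 0.00296), kept in 6 of 6 fits that left out 1 library. In YAP KD Nedd4l stood at 16.2, 14.1 and 15.3 CPM against 15.9, 18.6 and 17.6 CPM in CTR KD, with overlap (log2FC -0.19, edgeR adjusted p = 0.175). The related ligases Smurf1 and Smurf2 had log2FC values of 0.11 (edgeR adjusted p = 0.316) and 0.11 (edgeR adjusted p = 0.205) in YAP OE.

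Gdf1, a ligand that forms heterodimers with Nodal, stood at 6.33, 5.46 and 3.24 CPM in CTR OE and at 2.56, 2.33 and 2.44 CPM in YAP OE. The log2FC was -1.03 (SE 0.186, edgeR adjusted p = 0.00751). Gdf1 shares its span on chromosome 8 with Cers1 (Gdf1 at chr8:70315775-70331592). Gdf1 held 100% of the counts of this pair in CTR OE 1 and CTR OE 2, and between 39.6% and 53.9% in the other 10 libraries. Summed with Cers1, an alternative added after the data were seen, the log2FC was -0.19 (SE 0.093, edgeR adjusted p = 0.413), and the sums of 6.33, 5.46 and 6.58 CPM in CTR OE and 5.15, 5.9 and 5.13 CPM in YAP OE overlapped. CTR OE 3, where Gdf1 held 49.2% of the pair, stood at 3.24 CPM, above all YAP OE libraries. The part of the division of reads in the lower Gdf1 level of YAP OE was not tested.

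**Figure D5:**
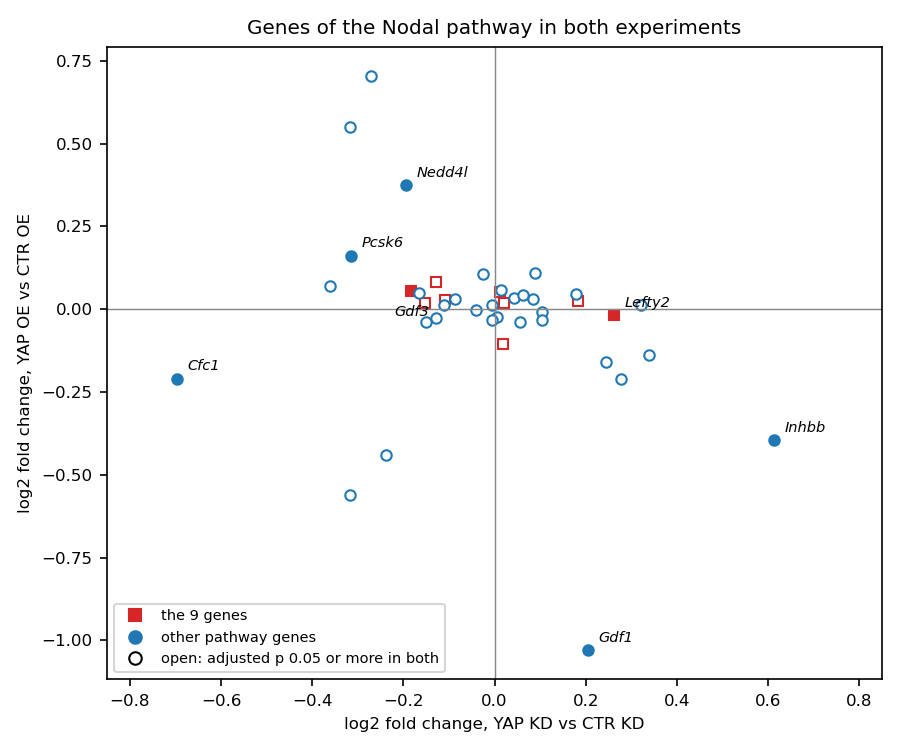
Log2FC in the knockdown (horizontal) and in the overexpression (vertical) of the 9 genes (red squares) and of the other pathway genes tested in both experiments (blue circles); filled symbols passed the edgeR test in at least 1 experiment and are named. Inhbb lies at 0.61 and -0.40, and the 9 genes lie close to 0 on the vertical axis.

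The main receptors and the nuclear partners were all detected. Group means were 33.2 to 37.3 CPM for the type I receptor gene Acvr1b, 105 to 108 CPM for Acvr2b and 22.5 to 23.4 CPM for Acvr2a. Acvr1b had the lowest adjusted p of the receptors tested other than Cfc1 in YAP KD (log2FC -0.17, SE 0.0461, edgeR adjusted p = 0.0737), with YAP KD below CTR KD in all libraries. Smad4 had group means of 71 to 76.6 CPM and a log2FC of -0.09 in YAP KD (edgeR adjusted p = 0.343), and Foxh1 had means of 30.6 to 32.2 CPM and a log2FC of 0.04 (edgeR adjusted p = 0.829). Acvr1c had group means of at most 0.0217 CPM. Among 13 nuclear partners and SMAD regulators, 0 were called by edgeR in YAP KD, where 5.49% of all genes tested were. A list of 13 is too small to tell 0 from that share. Of the 13, 3 had an unadjusted edgeR p under 0.05 (Tgif1, Nedd4l and Ppm1a), and 0 were called by DESeq2 or limma-voom.

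The mesendoderm and left-right target genes of the pathway had low levels. Of 7 such genes 6 were tested, and 0 were called by edgeR in either experiment. Over all genes tested, 5.49% were called in YAP KD and 2.13% in YAP OE, so 6 genes are too few to tell 0 from these shares. An unadjusted edgeR p under 0.05 was seen for 1 gene in YAP KD and 2 in YAP OE (Eomes and T). DESeq2 and limma-voom called 0 of them. Eomes had group means from 1.06 to 1.85 CPM and a log2FC of 0.55 in YAP OE (SE 0.156, edgeR adjusted p = 0.0949). T had means from 0.209 to 0.497 CPM and a log2FC of 0.71 (SE 0.293, edgeR adjusted p = 0.294). The extracellular antagonist gene Cer1 was at 0 in 3 of the 4 groups.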

How the data were processed

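RNA-Seq of 12 ESC libraries (4 groups of 3) was used. The authors mapped reads with STAR to mm10 (GRCm38) and quantified curated RefSeq genes with RSEM, and they deposited expected counts, not normalized, with each gene's length and effective length. Versions of STAR and RSEM and the strand setting are not given in the sources used here. Reads matching more than 1 gene are split by RSEM according to estimated abundance, so near-identical or overlapping genes exchange reads. Deposited TPM and FPKM values were not used.

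Expected counts were rounded to whole numbers, filtered with filterByExpr and scaled by TMM factors. YAP and CTR were compared within each experiment (6 libraries) by the edgeR 4.0.16 quasi-likelihood F test in R 4.3.3 (two-sided, Benjamini-Hochberg over all genes tested, called under 0.05). The difference between the effects and the control contrast came from 1 fit over 12 libraries. An SE is the absolute log2 fold change divided by the square root of F. Depth was 42900000 to 57200000 expected counts per library, and replicates differed beyond sampling noise (3.54 to 25.7 in chi-square over its degrees of freedom), so none was merged. Likeness was Pearson's r of log2 CPM (prior count 2) after the mean of each experiment was subtracted.

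Named were Yap1, the 9 genes, listed pathway genes called in either experiment with the receptors, Smad4 and Foxh1, other listed genes beside them, the 3 genes most like each of the 9, and overlapping genes. Some items are not reported here. The genes and lists were chosen with earlier results of these data known. Alternatives were RLE, upper-quartile and no scaling factors, 2 other filters (no filter beyond 1 count, or 1 CPM in 3 libraries), DESeq2 1.42.0, limma-voom (limma 3.58.1), a fit over 12 libraries, a replicate block, summed Lefty genes and each library left out. The procedure was tested on simulated data. Lefty sequences came from GENCODE vM1 transcripts, and gene spans from RefSeq (GRCm38.p6).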

Additional observations from a re-analysis of the deposited data

Results flagged for a closer look

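The YAP effects in the overexpression and in the knockdown differed by the test of the difference (edgeR, 1 fit over 12 libraries) for 2 of the 9 genes. They also differed for 4 of the 34 other pathway genes tested. Over all 15049 genes tested, 8.8% were called. The log2 differences, overexpression minus knockdown, were 0.241 for Gdf3 and -0.28 for Lefty2. The Lefty2 call was kept in 5 of 12 fits that left out 1 library, and it was lost for the summed pair. Among the other pathway genes they were -1.01 for Inhbb, 0.479 for Pcsk6 and 0.57 for Nedd4l (SE 0.102, edgeR adjusted p = 0.00231), each kept in 12 of 12 fits that left out 1 library. For Gdf1 the difference was -1.23 (SE 0.291, edgeR adjusted p = 0.0146), and after summing with Cers1 it was -0.31 (edgeR adjusted p = 0.229). Groups of 3 libraries are too small for the check for samples far from the others.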

How the results depend on the processing

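Of the alternatives that kept all libraries, the fit over 12 libraries called 1261 genes in YAP KD in place of 802, and that with no filter beyond 1 count called 556 in YAP OE in place of 316. The log2FC of Tdgf1 turned to -0.000752 without the filter (difference between experiments) and to -0.00278 with upper-quartile factors (CTR OE against CTR KD). Cfc1, Skil, Lefty2 and Gdf1 changed calls as given above. With a replicate block, the YAP KD calls of Gdf3 (edgeR adjusted p = 0.162), Lefty2 (0.0591), Pcsk6 (0.135) and Cfc1 (0.0936) were also lost. No scaling moved the median of all genes by over 0.1. Deviations of same-numbered replicates had r from -0.392 to 0.013 in the knockdown and from -0.022 to 0.08 in the overexpression. Pairs of other numbers had r from -0.17 to 0.41 and from -0.139 to 0.064, so not every sample correlated best with its own number. With 3 libraries per group, these values cannot show whether same-numbered replicates were handled together. With a replicate block, 193 genes, 0 of the 9 and 1 pathway gene were called in YAP KD, 280 genes and 0 of the 9 in YAP OE, and 0 of the 9 between the control groups, while Gdf3 and Lefty2 still differed between the experiments.

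With 1 library left out, YAP KD called 298 to 1019 genes, 0 to 2 of the 9 and 1 to 3 pathway genes, and YAP OE 154 to 327 genes and 0 of the 9. The difference between experiments called 1 to 2 of the 9, and the control contrast 85 to 217 genes and 0 to 1 of the 9. Some log2FC values that passed no test changed sign. In YAP KD these were Lefty1 (-0.0183 to 0.0759), Tdgf1 (-0.00848 to 0.0405) and Smad2 (-0.00938 to 0.0268). In YAP OE they were Nodal (-0.0221 to 0.039), Lefty2 (-0.0712 to 0.0222), Smad7 (-0.106 to 0.109), Skil (-0.0103 to 0.0547) and Cfc1 (-0.481 to 0.0422). Between experiments it was Tdgf1 (-0.0206 to 0.0288), and between controls Nodal (-0.0193 to 0.0494), Tdgf1 (-0.0169 to 0.0167) and Smad7 (-0.175 to 0.011). The cause was not tested. With 3 libraries per group, the 95% intervals given in the report limit what could be detected for each gene.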
